A study of Homo sapiens with 3 samples.

Results

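Chemokine ligand genes encode small secreted or membrane-bound proteins that draw leukocytes along a gradient by binding G protein-coupled receptors. The members were 10 such genes (CXCL1, CXCL2, CXCL3, CXCL8, CXCL12, CXCL14, CXCL16, CCL2, CCL5 and CCL20), taken as every probe set that the platform annotation pairs with exactly 1 of these symbols. They had 18 probe sets, of 54613 on each array that were not controls. CXCL2, CXCL14 and CCL5 had 3 probe sets each, CXCL8 and CXCL12 had 2 each, and the other 5 genes had 1 each.

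The cells were U2OS, a line from a human osteosarcoma, a bone tumour, and each array held total RNA of 1 culture collected 5 days after a retrovirus was added. One culture received stable Set8b (Set8b_deltaPIP2), a form of the enzyme that escapes the CRL4-Cdt2 ubiquitin ligase. Another received wt-Set8b, which that ligase can mark for destruction, and the third received pMSCV-vector with no insert, so all 3 were transduced. Set8b (gene KMT5A) adds a single methyl group to lysine 20 of histone H4. How many cells took up the virus, and whether they were selected, the labels do not say. With 1 array per construct no test could be made and no difference has a replicate check.

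Ligands are grouped by the spacing of their first cysteines, with a residue between them in the CXC group and none in the CC group. CXCL1, CXCL2, CXCL3 and CXCL8 bind the receptor CXCR2 and attract neutrophils. CCL2 attracts monocytes through CCR2, CCL20 attracts dendritic and T cells through CCR6, and CCL5 attracts T cells and monocytes. CXCL12 is the ligand of CXCR4 and ACKR3, CXCL16 is a membrane-anchored ligand of CXCR6, and CXCL14 is made by many resting epithelia. Tumour and fibroblast cells can also make several of these, and CXCL8 and CCL2 are among the factors that senescent cells are known to secrete.

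The DNA before the start of 3 genes is shown because these are members that were at least 2-fold apart between arrays and that have an entry in the promoter table. Each run is the 250 bases before the start of the gene in RefSeq, GRCh38.p14, read 5′ to 3′ on the strand of the gene. CXCL8 lies on chromosome 4 at chr4:73740319-73740568 (plus strand), CCL20 on chromosome 2 at chr2:227813592-227813841 (plus strand) and CXCL14 on chromosome 5 at chr5:135578992-135579241 (minus strand). Capitals mark matches, on either strand, to 4 motifs. These were GGAATTTCC (a core of NF-kB sites), GGGANNNNCC (a looser NF-kB form, which can overlap the core), TGANTCA (AP-1) and TATAAA (the TATA box).
CXCL8: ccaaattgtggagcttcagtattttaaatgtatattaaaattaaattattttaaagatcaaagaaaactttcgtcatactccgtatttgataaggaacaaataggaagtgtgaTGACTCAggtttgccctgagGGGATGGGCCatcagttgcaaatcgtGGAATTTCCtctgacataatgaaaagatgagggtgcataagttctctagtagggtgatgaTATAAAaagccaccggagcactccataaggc
CCL20: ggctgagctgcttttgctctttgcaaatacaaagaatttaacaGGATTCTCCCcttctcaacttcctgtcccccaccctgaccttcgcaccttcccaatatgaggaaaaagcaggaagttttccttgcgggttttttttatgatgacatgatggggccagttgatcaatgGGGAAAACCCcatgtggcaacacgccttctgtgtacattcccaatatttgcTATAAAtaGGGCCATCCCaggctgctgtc
CXCL14: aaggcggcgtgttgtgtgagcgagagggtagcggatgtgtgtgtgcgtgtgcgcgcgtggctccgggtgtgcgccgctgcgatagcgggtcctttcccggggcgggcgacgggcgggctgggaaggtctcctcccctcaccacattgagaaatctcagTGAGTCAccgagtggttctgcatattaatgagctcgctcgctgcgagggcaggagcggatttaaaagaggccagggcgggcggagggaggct

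The CXCL8 window held the core NF-kB motif from base -91, the looser form from -117, an AP-1 motif from -137 and a TATA box from -31, counted back from the start. CCL20 had the looser form from -207, -80 and -21 and a TATA box from -29, without the core motif. CXCL14 had an AP-1 motif from -92 and none of the other 3. CXCL1, CXCL2 and CXCL3 shared the core motif, from -78, -77 and -78, each inside a match to the looser form. Among 35116 RefSeq windows from 250 bases before to 50 bases after a start, 0.461% held the core motif, 25.6% the looser form, 7.71% the AP-1 motif and 11.5% the TATA box. Of the 7 members with a window the core motif was in 4, the looser form in 5, and the AP-1 motif and the TATA box in 2 each. CCL2, CCL5 and CXCL16 had no window. The windows of CXCL1, CXCL2 and CXCL3 are nearly alike in the bases around the core motif, so these are not separate cases. A match describes letters and not binding.

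Signals are intensities on a linear scale after quantile normalization, which gives the 3 arrays the same distribution. A signal below 50 was marked as near background and set to 50 before a log2 difference was taken, so a difference with such a side is a bound. A probe set counted as measured in a comparison where at least 1 of its 2 arrays read 50 or more, and as called where the arrays were at least 2-fold apart. Where a gene had several probe sets, their disagreement gave a measure of probe noise. As an SD it was 0.38 log2 between stable Set8b and vector (5945 genes), 0.40 for stable over wild-type Set8b (5956 genes) and 0.33 for wild-type Set8b over vector (5909 genes). Differences between repeated cultures are not in it, and having 3 arrays limits how precise any value is.

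As a whole the arrays had median deposited signals of 41.7 (stable Set8b), 42.8 (wild-type Set8b) and 38.6 (vector). Of all probe sets with 1 symbol, 48.5% (stable Set8b), 48.6% (wild-type Set8b) and 48.6% (vector) read below 50 after normalization. A reading below 50 is thus common, and the counts of such genes in the lists below stand beside that share. The share of all genes below 50 on all 3 arrays is not given here. The median ratio of 18 hybridisation spike-in probe sets was 0.796 between stable Set8b and vector, 0.784 between stable and wild-type Set8b and 1.01 between wild-type Set8b and vector. For 24 poly-A spike-in probe sets the ratios were 0.467, 1.06 and 0.441 in the same order of comparisons. The part of these differences in the results was not tested. The 4 probe sets of KMT5A differed by between -0.76 and 0.90 log2 for stable Set8b over vector, by between -1.08 and -0.06 for stable over wild-type Set8b and by between 0.18 and 1.23 for wild-type Set8b over vector, and whether they read the transduced sequence was not analysed here. Of 11 mesenchymal and bone marker genes with a probe set, 1 (COL1A2) read below 50 on all 3 arrays, and VIM, SPARC, COL1A1 and RUNX2 were among the others.

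With stable Set8b, CXCL8, CCL20 and CCL2 were higher and CXCL14 was lower, both against vector and against wild-type Set8b. These 4 genes were the members at least 2-fold apart in either comparison with signals below 50 set to 50. Both comparisons use the same stable Set8b array, so they are not separate evidence. CXCL16 was within 2-fold in all 3 comparisons, CXCL3 lay at the edge of background with differences that depend on the floor, and CXCL1, CXCL2, CXCL12 and CCL5 were near background on all 3 arrays. In bulk RNA, fewer cells that make a transcript and less of it per cell cannot be told apart.

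**Figure D1:**
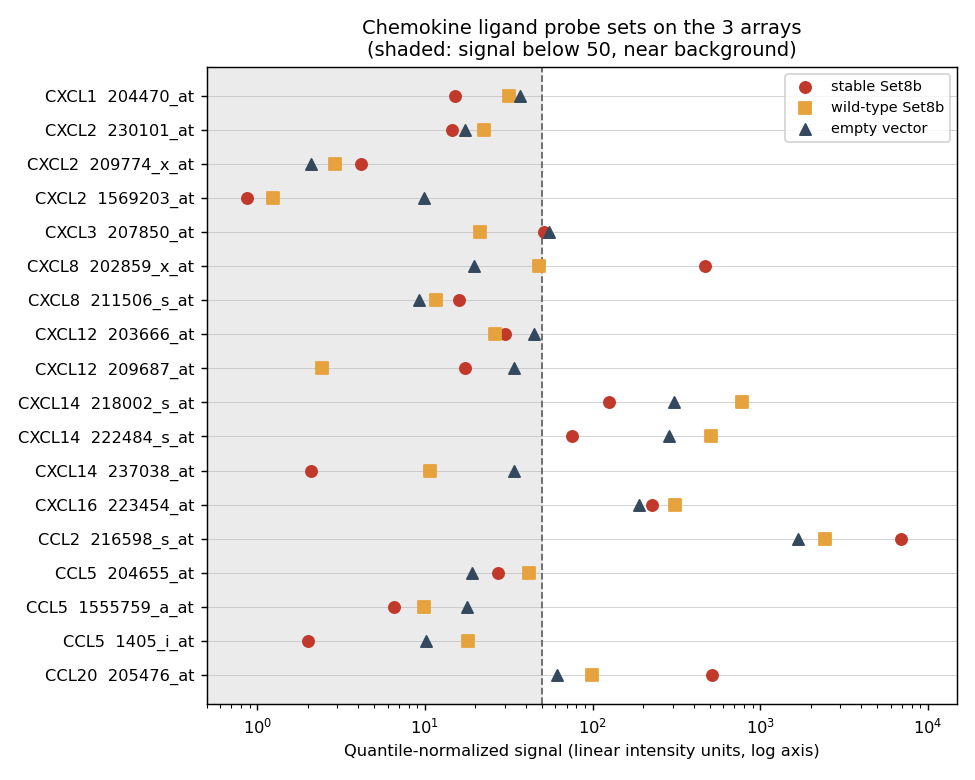
Quantile-normalized signal (log axis) of the 18 chemokine ligand probe sets on the stable Set8b (circles), wild-type Set8b (squares) and empty vector (triangles) arrays, 1 array each, with signals below 50 shaded. In 11 probe sets all 3 points lie in the shaded range, and stable Set8b is the highest point for CCL2, CCL20 and CXCL8 and the lowest for the probe sets of CXCL14.

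Among the ligands of CXCR2, CXCL8 was the member with a clear signal on 1 array. Probe set 202859_x_at read 466 with stable Set8b, 48.1 with wild-type Set8b and 19.7 with vector. The stable Set8b array was thus the one above 50, although the deposited value for wild-type Set8b before normalization was 50. With the dimmer side set to 50, CXCL8 was at least 9.31-fold higher with stable Set8b than with either vector or wild-type Set8b (log2 3.22). Its other probe set, 211506_s_at, read 16.0, 11.6 and 9.20 in the same order, near background on all 3, so the 2 probe sets of CXCL8 did not give the same picture. Names ending in _x_at mark probe sets that may also read related transcripts, and whether 202859_x_at did so was not tested.

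CXCL1, CXCL2 and CXCL3, whose promoters share the core motif with CXCL8, did not show such a signal. CXCL1 read 15.1 with stable Set8b, 31.8 with wild-type Set8b and 37.1 with vector. The 3 probe sets of CXCL2 ranged from 0.867 to 22.4 over all arrays. CXCL3 read 51.3 with stable Set8b, 21.4 with wild-type Set8b and 55.1 with vector, at the edge of background, and with stable Set8b it was -0.10 log2 from vector. The wild-type Set8b array gave its low value. Against that array CXCL3 had a bound of 0.04 with the floor of 50 and 1.26 with a floor of 7.70, the 20th percentile of all signals, so its difference depends on the floor.

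CCL20 read 513 with stable Set8b, 99.2 with wild-type Set8b and 61.1 with vector, all above the mark of 50. It was 8.39-fold higher with stable Set8b than with vector (log2 3.07) and 5.17-fold higher than with wild-type Set8b (2.37). For wild-type Set8b over vector the difference was 0.70 log2, short of 2-fold. Its probe set, 205476_at, is the one called member whose name carries neither _x_at nor _s_at. Of 19570 probe sets that read 50 or more on both the stable Set8b and the vector array, CCL20 had the 11th highest difference. The difference of CXCL8 is a bound and has no rank.

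CCL2, the monocyte chemokine, was well above background on every array. Probe set 216598_s_at read 6893 with stable Set8b, 2438 with wild-type Set8b and 1675 with vector. That is 4.11-fold higher with stable Set8b than with vector (log2 2.04) and 2.83-fold higher than with wild-type Set8b (1.5). The difference for wild-type Set8b over vector was 0.54. The order of the arrays, stable Set8b highest and vector lowest, was the same as for CCL20 and, with 2 of its signals below 50, CXCL8. No other probe set read CCL2 alone.

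CXCL14 went the other way and was the member with 2 probe sets in the same direction. Probe set 218002_s_at read 124 with stable Set8b, 779.6 with wild-type Set8b and 305 with vector. Probe set 222484_s_at read 75.8, 511 and 284 in the same order. On both, wild-type Set8b was the highest array and stable Set8b the lowest. Relative to vector, stable Set8b was 2.45-fold lower by the first (log2 -1.29) and 3.75-fold lower by the second (-1.91).

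Against wild-type Set8b, CXCL14 was 6.27-fold lower with stable Set8b by 218002_s_at (log2 -2.65) and 6.74-fold lower by 222484_s_at (-2.75). The 2 values differ by less than that probe-set SD of 0.40. They were the 2 lowest of 19529 probe sets that read 50 or more on both of these arrays. For wild-type Set8b over vector, CXCL14 was higher, by 1.36 log2 for 218002_s_at (2.56-fold, the 16th highest of 19766 probe sets that read 50 or more on both arrays) and by 0.85 for 222484_s_at, short of 2-fold. The remaining probe set, 237038_at, read 2.10 with stable Set8b, 10.7 with wild-type Set8b and 34.1 with vector, all below 50, and there vector was the highest array.

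CXCL16 read 225 with stable Set8b, 309 with wild-type Set8b and 189.7 with vector, and its differences of 0.25 (stable Set8b over vector), -0.46 (stable over wild-type Set8b) and 0.70 (wild-type Set8b over vector) were all within 2-fold. CXCL12 had 2 probe sets, which ranged from 2.43 to 44.5 over the arrays, and the highest array was vector for both. The 3 probe sets of CCL5 ranged from 2.0 to 41.5. For these near-background genes no difference is given. In all, 11 of the 18 probe sets read below 50 on every array, 5 read 50 or more on every array, and 2 (CXCL3 and CXCL8) lay on both sides of the mark.

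**Figure D2:**
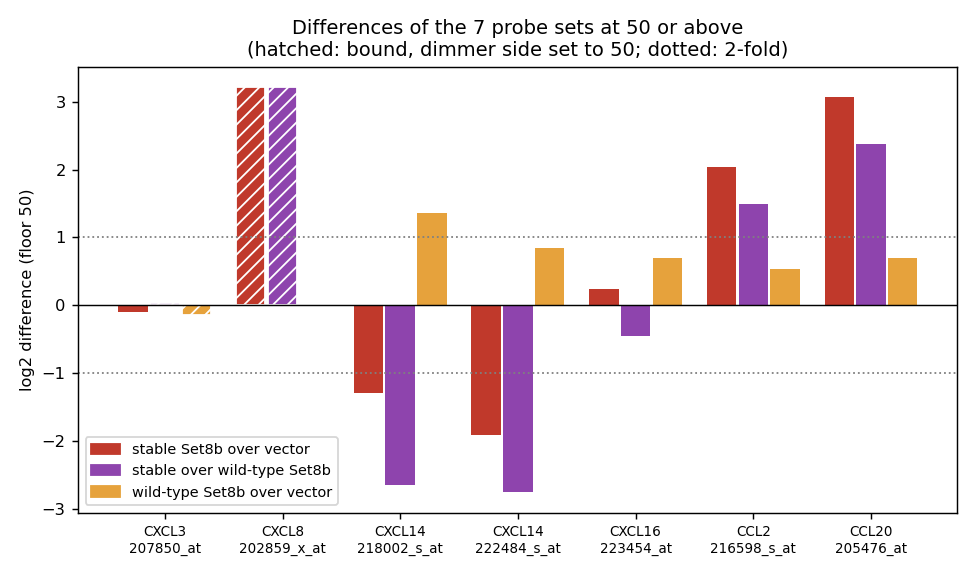
Log2 differences (floor 50) of the 7 chemokine ligand probe sets that reached 50, for stable Set8b over vector, stable over wild-type Set8b and wild-type Set8b over vector, each from 1 array per construct, with bounds hatched and 2-fold dotted. The 2 probe sets of CXCL14 lie below 0 for stable Set8b over vector and above 0 for wild-type Set8b over vector, while CCL2 and CCL20 lie above 0 in all 3 comparisons.

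The counts stand beside those of all probe sets with 1 symbol. For stable Set8b over vector, 7 of the 18 member probe sets were measured, and 3 were at least 2-fold higher and 2 lower, against 4.25% higher and 3.84% lower of 22709 measured probe sets. For stable over wild-type Set8b, 3 of 7 were higher and 2 lower, against 3.96% and 3.65% of 22752. For wild-type Set8b over vector, 1 of 6 was higher and 0 lower, against 0.801% and 0.605% of 22480. The 2 lower probe sets in the first 2 comparisons both belong to CXCL14, and the member that was higher in the last is CXCL14 as well. CXCL8 entered through the array on which it was high, so these are counts of the members measured and not of all members.

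Over the measured member probe sets the median log2 difference was 0.25 between stable Set8b and vector, 0.04 between stable and wild-type Set8b and 0.70 for wild-type Set8b over vector, beside -0.01 for all measured probe sets in each comparison. The first 2 medians lie near 0 because members stand on both sides of it, and they are the values of CXCL16 and CXCL3. In the last comparison 5 of the 6 probe sets lay between 0.54 and 1.36, and CXCL3 was at -0.14.

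**Figure D3:**
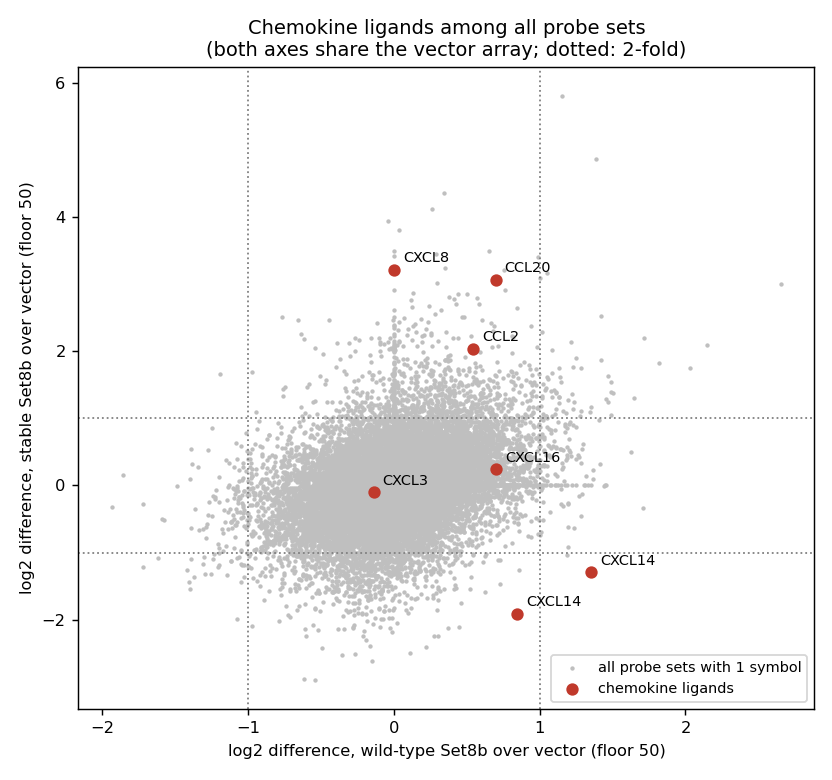
Log2 differences (floor 50) of all probe sets with 1 symbol that reached 50 (grey) and of the chemokine ligands (red), wild-type Set8b over vector on the horizontal axis and stable Set8b over vector on the vertical one. Both axes use the same vector array, and the 2 probe sets of CXCL14, at 1.36 and 0.85 across and -1.29 and -1.91 up, lie at the lower right.

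By the brightest probe set of each gene, stable Set8b was at least 2-fold above vector in 3 of the 6 measured members and below it in 1, against 4.89% and 4.06% of 12701 genes. Against wild-type Set8b, again 3 of 6 were higher and 1 lower, beside 4.13% and 4.08% of 12754 genes. In both counts CXCL8 entered through the stable Set8b array, on which it was high, so it could only count as higher. Its probe set near background on all 3 arrays is left out by this choice. For wild-type Set8b over vector 1 of 5 was higher and 0 lower, beside 0.685% and 0.351% of 12552 genes. Other genes of the chemokine pathway were counted in the same way.

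Of 29 other chemokine ligands with a probe set, 22 read below 50 on all 3 arrays. Of the 7 measured between stable Set8b and vector, 1 was at least 2-fold higher and 0 lower, beside 4.89% and 4.06% of all genes. That gene was CCL4, a chemokine that macrophages and T cells are known to make. It read 535 with stable Set8b, 8.27 with wild-type Set8b and 4.4 with vector, at least 3.42 higher on the log2 scale against both. Its single probe set was thus near background on every array but that of stable Set8b, and CCL4 was counted through that array. CCL26, which attracts eosinophils, read 446, 546 and 520.4 in the same order (-0.22 over vector). CX3CL1, a membrane-anchored ligand, was at -0.22 over vector and -0.88 over wild-type Set8b by its brightest probe set, and at -0.86 and -1.67 by the other one, both bounds. XCL1, which attracts T and NK cells, read 147.8 with stable Set8b, 212 with wild-type Set8b and 201 with vector (-0.44 over vector). Its other probe set read 31.5, 38.7 and 29.3, below 50 on all 3 arrays. Over wild-type Set8b, of 6 measured other ligands, 1 was at least 2-fold higher and 1 lower, beside 4.13% and 4.08% of all genes. By the brightest probe set the lower one was PF4, a chemokine of platelets, at -1.08 as a bound. The names of the probe set of PF4 and of the brighter one of XCL1 end in _x_at.

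Most leukocyte markers were near background. Of 14 with a probe set, 9 read below 50 on all 3 arrays, among them PTPRC, CD14, LYZ, S100A8 and NKG7. Of those that reached 50, CD3D read 200.2 with stable Set8b, 75.9 with wild-type Set8b and 107 with vector. In the same order CD79A read 117, 183.9 and 99.7, ITGAX 87.8, 22.9 and 38.7, and CSF1R 57.9, 78.1 and 53.6. CD3E read 52.9 with wild-type Set8b and below 50 on the other arrays. The summed signal of the list was 637 with stable Set8b, 557 with wild-type Set8b and 465 with vector. Of 5 endothelial markers 3 read below 50 on all arrays, while PECAM1 read 173 with stable Set8b, 122 with wild-type Set8b and 74.9 with vector, and VWF read 57.2, 68.3 and 77.7 in the same order. Of 7 epithelial markers, 5 reached 50, and of these 4 lay above 0 for stable Set8b over vector (KRT8 at 0.13, KRT18 at 0.46, KRT14 at 0.56 and CDH1 at a bound of 0.65). CDH1 reached 50 on the stable Set8b array alone, so with the floor its difference could only lie above 0. EPCAM lay below 0, with 169 for stable Set8b, 425 for wild-type Set8b and 431 for vector (-1.35). The part of these markers in the results was not tested.

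The receptors were mostly near background in these cells. Of 20 receptor genes with a probe set, 18 read below 50 on all 3 arrays by the brightest one. These included CXCR1 and CXCR2 (receptors of CXCL8), CXCR4 (of CXCL12), CXCR6 (of CXCL16), CCR2 (of CCL2), CCR6 (of CCL20) and ACKR1, an atypical receptor that binds many ligands. The exception with a high signal was ACKR3, an atypical receptor that takes up CXCL12 without G protein signalling. It read 996 with stable Set8b, 1461 with wild-type Set8b and 2155 with vector, -1.11 on the log2 scale relative to vector. A second probe set of ACKR3, 232746_at, was at -1.23, and the other was near background. CCR1, which binds CCL5, read 78.8 with stable Set8b and below 50 on the other 2 arrays, a bound of 0.66. Its other probe set read 30.8, 15.1 and 11.9 with stable Set8b, wild-type Set8b and vector, near background on all 3.

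Of 19 measured proteases, anchors and mRNA decay factors, 2 stood at least 2-fold higher with stable Set8b than with vector and 0 stood lower, beside 4.89% and 4.06% of all genes, and their median was 0.16. SDC4, a cell-surface heparan sulphate proteoglycan that can hold chemokines, read 3178 with stable Set8b, 1372 with wild-type Set8b and 1312 with vector (1.28 over vector and 1.21 over wild-type Set8b). MMP9, a protease that trims CXCL8, was at 1.20 over vector and 0.66 over wild-type Set8b. EXT1, which builds heparan sulphate chains, was at 0.85 over vector and 1.08 over wild-type Set8b, and SDC2, another such proteoglycan, was at -0.84 over vector. SDC3, of the same family, was at 0.59 over vector and 0.94 over wild-type Set8b. KHSRP, which promotes decay of short-lived mRNAs, was at -0.49 over vector.

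Of 16 measured inducers and transcription factors, 5 were at least 2-fold higher with stable Set8b than with vector and 0 lower. The shares of all genes were 4.89% and 4.06%. Of the 16, 15 lay above 0, some of them by less than the probe-set SD of 0.38. The median was 0.51, beside 0.0 for all measured genes. For wild-type Set8b over the same vector array 13 of 15 lay above 0, with a median of 0.37, beside 0.01 for all measured genes. For stable over wild-type Set8b 11 of 16 lay above 0 and 5 below, with a median of 0.30, beside -0.01 for all measured genes. Those 5 were NFKBIA (-0.42), JUN (-0.37), CEBPB (-0.30), JUNB (-0.14) and REL (-0.08). NFKBIZ, a nuclear cofactor of NF-kB, read 1782 with stable Set8b, 662 with wild-type Set8b and 561 with vector (1.67 over vector and 1.43 over wild-type Set8b). Its second probe set was at 1.40 and 1.34. RELB, an NF-kB subunit, was at 1.54 over vector, TNFAIP3, an inhibitor of NF-kB signalling, at 1.49 (0.74 by its other probe set) and FOSL1, a subunit of AP-1, at 1.23. CEBPD, a transcription factor of the C/EBP family, was at 0.77 over vector. Over wild-type Set8b, RELB was at 1.08, TNFAIP3 at 0.99 (1.23 by its other probe set), FOSL1 at 0.36 and CEBPD at 0.05. For wild-type Set8b over vector, FOSL1 was at 0.88 and CEBPD at 0.72, so most of their difference from vector was on both Set8b arrays. The cytokine IL6 read 112 with stable Set8b, 31.1 with wild-type Set8b and 27.9 with vector, a bound of 1.16. IL6 entered the counts over vector and over wild-type Set8b through the array on which it was high. The inducers IL1A, IL1B and TNF were near background on all 3 arrays. Against wild-type Set8b 3 of 16 were at least 2-fold higher and 0 lower, beside 4.13% and 4.08% of all genes. For wild-type Set8b over vector it was 0 of 15 in either direction, beside 0.685% higher and 0.351% lower.

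**Figure D4:**
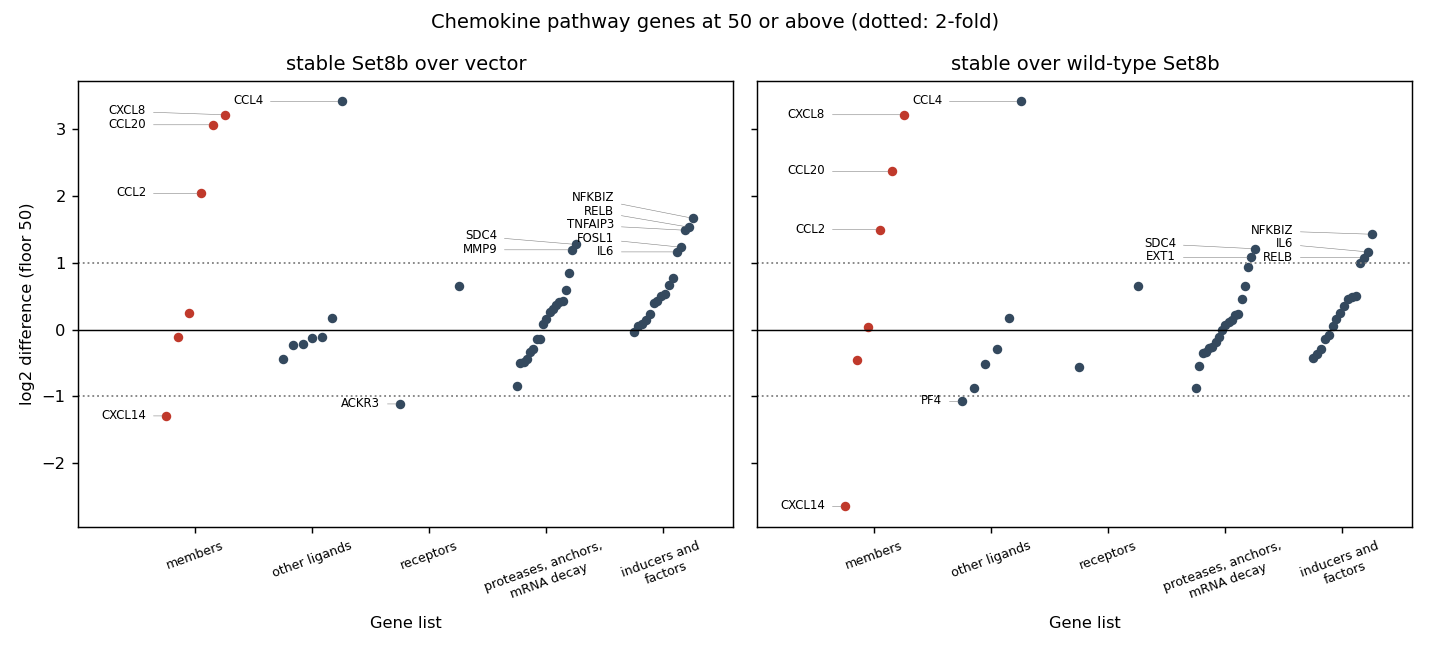
Log2 differences (floor 50) of chemokine ligands (red) and of 4 lists of related genes (dark), by the brightest probe set of each gene that reached 50, for stable Set8b over vector (left) and stable over wild-type Set8b (right), with genes past 2-fold named. CCL4 at 3.42 is the 1 other ligand past 2-fold higher, and ACKR3 at -1.11 is the 1 receptor past 2-fold over vector.

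CXCL8, CXCL1, CXCL3 and CXCL2 belong to a run of 9 protein-coding genes on chromosome 4, in the gene order of the RefSeq table. Of these, CXCL6, PF4V1, CXCL1, PPBP, CXCL5 and CXCL2 read below 50 on all 3 arrays. CXCL8 was the one at least 2-fold apart between stable Set8b and vector, and PF4 read 41.4 with stable Set8b, 105 with wild-type Set8b and 54.6 with vector. CCL2 is followed on chromosome 17 by CCL7, CCL11, CCL8, CCL13 and CCL1. Its neighbour CCL7, another monocyte chemokine, read 56.6 with stable Set8b, 41.6 with wild-type Set8b and 11.8 with vector, and CCL11, CCL8 and CCL1 were below 50 throughout. The high signals thus stood at single genes of each run by these probe sets. No probe set read CCL13 alone.

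**Figure D5:**
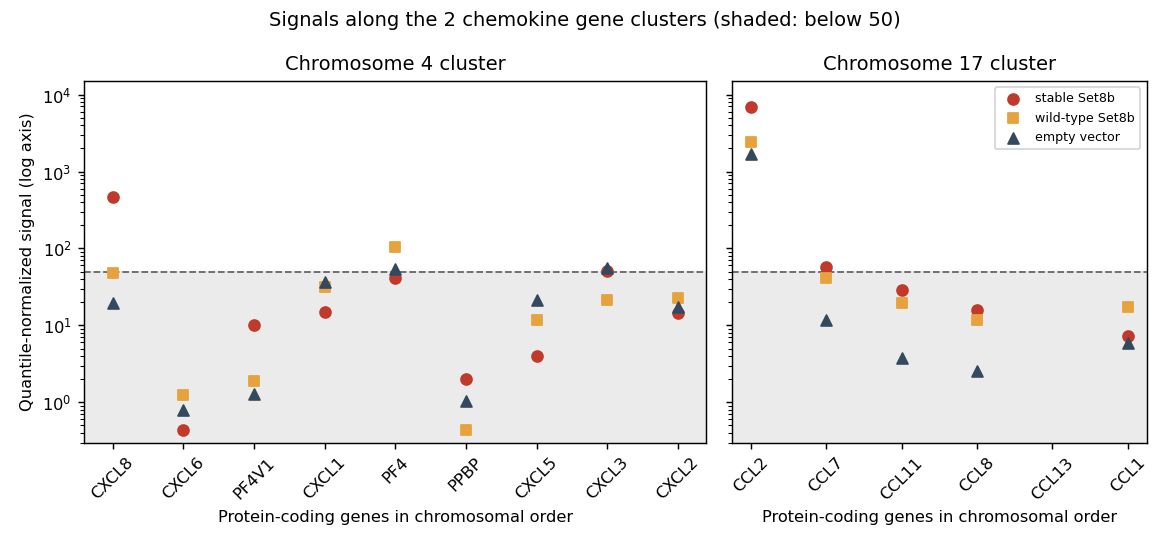
Quantile-normalized signal (log axis) of the protein-coding genes in chromosomal order along the chemokine runs on chromosomes 4 and 17, on the stable Set8b (circles), wild-type Set8b (squares) and empty vector (triangles) arrays, by the brightest probe set. On chromosome 4 the CXCL8 point of stable Set8b, at 466, lies far above the mark of 50, and on chromosome 17 all 3 CCL2 points do.

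The genes closest in pattern were found by the distance between pairs of log2 differences from vector, over the 3 arrays and with the floor of 50. For CXCL8 they were CCL4 (distance 0.20), ODAPH (0.27), DSP, which encodes a desmosome protein (0.31), and CFAP58 (0.35). CXCL8 itself read below 50 with wild-type Set8b and with vector, so its difference between those 2 arrays was set to 0. All of its distances thus depend on the floor. The first 3 of these genes also read below 50 on both other arrays, which sets the same difference to 0. CFAP58 read 3890 with stable Set8b, 526 with wild-type Set8b and 412 with vector. For CCL20 they were CSMD3 (0.15), GLIPR1 (0.17), LINC00973 (0.31) and OR51B5 (0.33). CSMD3 read 10.8 with vector, so both of its differences from vector are bounds and its distance depends on the floor. GLIPR1 read 1956 with stable Set8b, 441 with wild-type Set8b and 259 with vector, all above 50 as for CCL20. With 3 arrays such likeness is loose.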

How the data were processed

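Per the labels' protocols, biotin-labelled total RNA of U2OS cells was measured on Affymetrix arrays. The deposited values are linear probe-set intensities, 54675 per array, of which 62 are controls, and the software and scaling that made them are not given in the sources used here. Groups came from the construct named in the labels, 1 array each.

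Python 3.11.15 with numpy 2.4.6, pandas 2.3.3 and matplotlib 3.10.9 was used. Controls were left out and the arrays were quantile normalized, since their median log2 signals spanned 0.15. This removes an overall shift. Signals were set to a floor of 50 and taken to log2, which understates differences of dim genes. Of 54613 probe sets, 41091 had 1 symbol, 1801 several and 11721 none in the platform annotation. The brightest probe set stood for each of 19775 genes.

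The members and lists were chosen with earlier results of these data known. Named were all members, up to 6 genes of each list, by how far stable Set8b stood from vector, receptors that bind members, genes closest in pattern and KMT5A. Markers and some near-background genes were named after their values were seen. RefSeq promoter windows matched 7 of 10 members by symbol. Proteins were not analysed here. The steps were tested on simulated data. Alternatives covered normalization, floor, threshold, filter and probe-set choice.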

Additional observations from a re-analysis of the deposited data

Results flagged for a closer look

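CXCL14 lay below vector with stable Set8b and above vector with wild-type Set8b on both of its probe sets that reached 50. The gap between the forms was -2.65 log2 for 218002_s_at and -2.75 for 222484_s_at. There is 1 array per construct, so the difference was not tested.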

How the results depend on the processing

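The counts of member probe sets past 2-fold were 3 higher and 2 lower for stable Set8b over vector and over wild-type Set8b, and 1 higher and 0 lower for wild-type Set8b over vector. They were the same with values as deposited, with arrays centred on their medians and with a floor of 100. With no filter they could not differ, since the probe sets this adds are at the floor on both arrays. With a floor of 7.70 (20th percentile) 1 probe set (CXCL3) was lower for wild-type Set8b over vector, and 4 in place of 3 were higher for stable over wild-type Set8b. At 1.5-fold, 4 were higher for wild-type Set8b over vector. At 3-fold, 1 was lower for stable Set8b over vector, 2 were higher over wild-type Set8b and 0 were higher for wild-type Set8b over vector. Without _x_at and _s_at probe sets, 3 were measured, and 1 (CCL20) was higher and 0 lower in both comparisons of stable Set8b, with 0 higher for wild-type Set8b over vector. By the brightest probe set per gene, 1 was lower in both comparisons of stable Set8b, since the probe sets of CXCL14 count once. Of 80 single differences under 4 alternatives, 72 moved by less than the SD between probe sets, 8 moved by more and 0 past 2-fold changed sign. A changed floor cannot move a difference whose 2 signals both lie above the old and the new floor. Part of the 72 could therefore not have moved, and their number is no measure of stability. The 8 that moved by more were all under a changed floor: CXCL8 for stable Set8b over vector was at 4.56 with the lower floor and 2.22 with a floor of 100. No paired analysis was possible because each construct had 1 array.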
